A study of Mus musculus with 4 samples.

Results

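The genes that drive or mark epithelial-mesenchymal transition (EMT) were read in bulk RNA sequencing of mouse lungs that carried metastases of triple-negative breast cancer (TNBC). They comprise 7 transcription factor genes (Snai1, Snai2, Twist1, Twist2, Zeb1, Zeb2 and Prrx1), 2 mesenchymal cadherin genes (Cdh2 and Cdh11) and Vim, which encodes the intermediate filament protein vimentin. The genes were chosen by name, with earlier results of these data known, and all 10 were found among the 56748 genes of the count table. Of these, 9 were among the 15320 genes with enough counts to be tested, and Twist2 was not. All 10 are annotated as protein-coding.

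Female BALB/cJ mice, 7 weeks old, had received 4T1-FLuc cells, a mouse TNBC line that expresses firefly luciferase, through the tail vein, so that both groups carried these metastases. The control group, named saline in the titles and PBS in the treatment labels, gave 2 samples. The treated group, written here as ADC/cmLumiOpto, gave 2 samples and had received for 3 weeks an antibody-drug conjugate (ADC) together with the gene therapy cmLumiOpto. The ADC is an anti-CD276 antibody that carries mertansine (DM1), an inhibitor of microtubules, labelled at 16 mg/kg. The study's methods give a lower dose, and the treatment label adds the abbreviation Olap, which was not explained in the sources used here. The gene therapy is an adeno-associated virus vector carried in antibody-coated exosomes, in which a cfos promoter drives a light-gated channel of the inner mitochondrial membrane that is opened by the light of a luciferase. The study's methods describe more samples per group than the 2 analysed here. Neither group analysed here received the ADC or the gene therapy alone, so their parts cannot be told apart. The labels describe tumor cells taken from the lung, the study's methods dissociated lung tissue, and genes of alveolar, endothelial and immune cells were present in all 4 libraries. In bulk samples, fewer cells of a type and less RNA per cell cannot be told apart.

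Total counts were between 15263375 and 19675436 per library. Levels are given as CPM, the count of a gene relative to the library size, scaled by edgeR's TMM factors (between 0.973 and 1.04), and a count of 3, taken as the floor of detection for counting error only, corresponds to between 0.146 and 0.202 CPM. Over genes, each of which is no replicate of its own, log2(CPM + 1) had a Pearson's r of 0.982 between the saline libraries and of 0.976 between the ADC/cmLumiOpto libraries. Whether each sample came from its own mouse was not stated in the labels, so p-values measure the spread between these samples. A log2 fold change is the ADC/cmLumiOpto level over the saline level, and SE is its standard error.

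In EMT, epithelial cells give up cell-cell junctions and apical polarity and take on a motile, mesenchymal form. Snail (Snai1), Slug (Snai2), Zeb1 and Zeb2 are zinc finger repressors, and Twist1 and Twist2 are basic helix-loop-helix (bHLH) proteins. All of them bind E-boxes, short palindrome-like DNA words, among them those of the E-cadherin gene Cdh1, and the homeobox protein Prrx1 acts beside them. The transition is known for the exchange of E-cadherin for N-cadherin (Cdh2) or cadherin-11 (Cdh11) and of keratin for vimentin filaments. The same genes are in use in normal lung, in fibroblasts, endothelial cells and macrophages among others, and Twist1 has long been studied in 4T1 metastasis.

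Promoter windows of 300 bases, from 250 before to 50 after an annotated start site, were taken from RefSeq on GRCm38.p6 and searched for the E-box CANNTG, which reads the same on both strands. RefSeq windows of 6 of the 10 genes were matched and searched (Snai1, Twist1, Twist2, Zeb2, Prrx1 and Vim). These were 9 windows in all because Zeb2 has 4. The Zeb2 windows at 45113204-45113503 and 45113230-45113529 largely overlap, so the 9 are not all separate promoters. No window of Snai2, Zeb1, Cdh2 or Cdh11 was searched, which does not mean that RefSeq lists none for them. Nothing is therefore known here about E-boxes at their start sites, including that of Cdh2, which had the largest difference of the group. Of the 9 windows, and likewise of the 6 genes, 1 held an E-box, that of Snai1, 126 bases before the start site. It is the word CACCTG, one of the pair CACCTG and CAGGTG (each the reverse complement of the other) that is known as the form Snail and ZEB proteins bind. Among all 32817 windows of this length in the mouse table, 72.3% held CANNTG and 20.2% held CACCTG or CAGGTG. The windows of Snai1 (chr2:167537945-167538244, plus strand, GC content 70%), Prrx1 (chr1:163313601-163313900, minus strand, 47.7%) and Vim (chr2:13574061-13574360, plus strand, 59.3%) are shown, 1 window for each gene with a single matched window that was lower after treatment at an unadjusted p under 0.05. Zeb2 met that threshold too, and its 4 windows, none with an E-box, are not printed. They are written 5′ to 3′ in lower case with the E-box in capitals.
Snai1: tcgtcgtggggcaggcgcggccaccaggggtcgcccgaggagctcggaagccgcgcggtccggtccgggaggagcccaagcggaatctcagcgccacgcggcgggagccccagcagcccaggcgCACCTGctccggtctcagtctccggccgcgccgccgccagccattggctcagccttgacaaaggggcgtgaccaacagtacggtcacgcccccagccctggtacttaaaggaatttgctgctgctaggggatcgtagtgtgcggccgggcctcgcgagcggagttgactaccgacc
Prrx1: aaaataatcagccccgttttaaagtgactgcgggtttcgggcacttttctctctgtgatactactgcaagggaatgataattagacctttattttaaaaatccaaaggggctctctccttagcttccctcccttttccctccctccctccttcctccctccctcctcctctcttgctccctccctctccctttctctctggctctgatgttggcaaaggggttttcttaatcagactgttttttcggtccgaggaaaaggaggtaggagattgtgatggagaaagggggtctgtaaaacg
Vim: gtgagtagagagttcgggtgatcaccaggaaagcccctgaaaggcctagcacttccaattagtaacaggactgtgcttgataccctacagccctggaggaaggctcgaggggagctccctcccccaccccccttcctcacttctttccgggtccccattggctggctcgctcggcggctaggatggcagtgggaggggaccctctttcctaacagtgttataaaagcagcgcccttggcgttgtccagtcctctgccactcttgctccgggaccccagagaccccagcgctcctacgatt
No capitals stand in the windows of Prrx1 and Vim, which says only that these letters are not in them.

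Of the 9 genes tested, 8 had a lower mean level after ADC/cmLumiOpto and 1, Zeb1, a higher one. The 5 genes lower at an unadjusted p under 0.05 (edgeR's quasi-likelihood test) were Cdh2, Vim, Prrx1, Zeb2 and Snai1, that is 5 of 9, where 12.2% of all genes tested met the same rule. Since the choice was made with results known, this count is a description. None of the 9 was higher at that threshold, which 11% of all genes met. With upper-quartile factors in place of TMM, which shift the balance between higher and lower calls, 9.13% of all genes were lower and 14.01% higher at that threshold, and the same count of 5 genes was lower. After Benjamini-Hochberg adjustment in edgeR's quasi-likelihood test, 0 of the 9 genes had an adjusted p under 0.05, as did 0% of all genes tested, so no single gene of the group passed the test. DESeq2, edgeR's exact test and the fit without a filter on low counts each put 3 of them (Cdh2, Prrx1 and Vim) under that adjusted threshold, where they called 8.69%, 7.64% and 8.84% of all genes. The median log2 fold change of the 9 genes was -0.52, beside 0.03 over all genes tested.

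In CPM, both ADC/cmLumiOpto libraries lay below both saline libraries for 5 of the 10 genes, the same ones as above, and the groups overlapped for the other 5. Of all genes tested, 28.8% had both treated libraries below and 28.1% both above. Leaving out saline replicate 2 moved the median log2 fold change of the genes tested here from -0.52 to -0.38. With a replicate block, 5 of these genes and 12.5% of all genes were lower at an unadjusted p under 0.05. At an adjusted p under 0.05, the fit with a replicate block called 3.96% of all genes and Cdh2 alone of these genes.

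**Figure D1:**
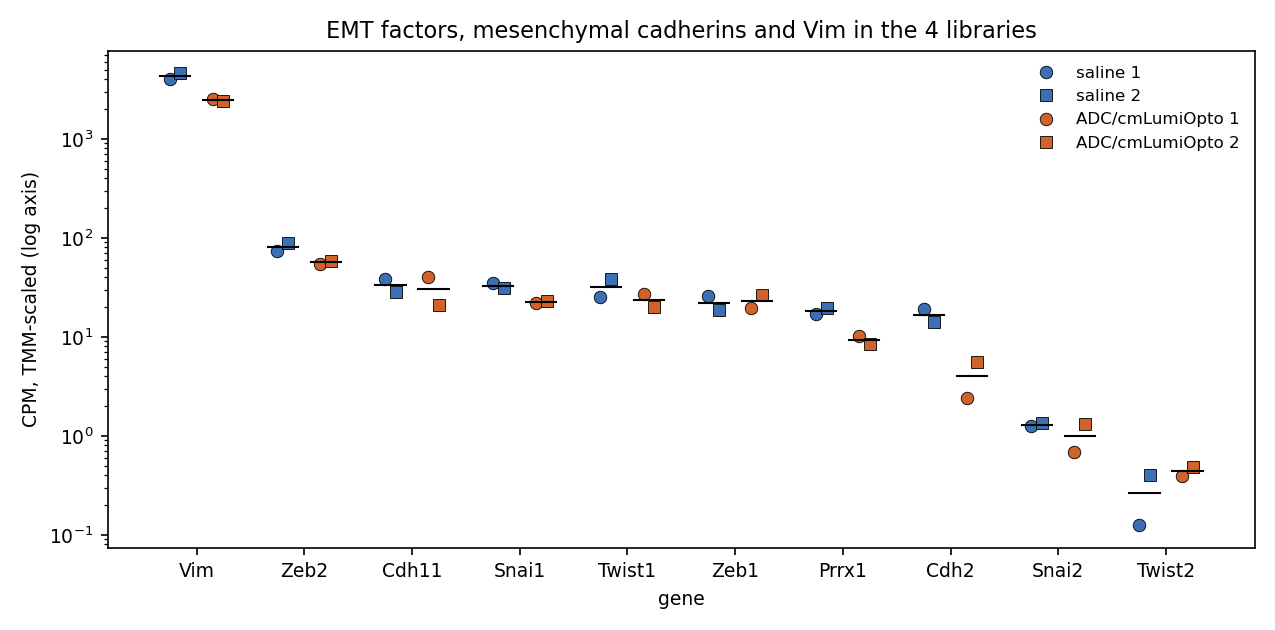
Level of each gene in each library, in TMM-scaled CPM on a log axis, with circles for replicate 1, squares for replicate 2, blue for saline, orange for ADC/cmLumiOpto and a bar at the mean of each group of 2. Vim, Zeb2, Snai1, Prrx1 and Cdh2 have both orange points below both blue ones, and Twist2 lies near the floor of 3 counts.

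Snai1 (ENSMUSG00000042821, chromosome 2, 167380115 to 167384734 in the positions of the count table, for which the submitters' notes name mm39) encodes Snail, the repressor first tied to the loss of E-cadherin. It was at 34.8 and 30.9 CPM in saline replicates 1 and 2 and at 22.1 and 23.0 CPM in ADC/cmLumiOpto replicates 1 and 2. Both treated libraries were below both saline ones, and the spread within each group was small beside the gap. The mean went from 32.8 ± 2.70 to 22.5 ± 0.612 CPM (SD, n = 2), to 0.686 times the saline level. The log2 fold change was -0.54 (SE 0.18, 95% interval -0.98 to -0.11), with an unadjusted p of 0.0220 and, by the quasi-likelihood F test of edgeR with Benjamini-Hochberg correction, an adjusted p of 0.159. The unadjusted p was above 0.05 without saline replicate 1 (0.116), ADC/cmLumiOpto replicate 1 (0.0680) or ADC/cmLumiOpto replicate 2 (0.0540).

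Snai2 (ENSMUSG00000022676, chromosome 16, 14523716 to 14527249) encodes Slug, the closest relative of Snail, which marks basal mammary cells. It had 20 counts in each saline library and 12 and 27 in ADC/cmLumiOpto replicates 1 and 2, that is 1.25 and 1.35 CPM against 0.680 and 1.32 CPM. The groups overlapped, and the treated libraries lay on both sides of saline replicate 1. The log2 fold change of -0.37 had a 95% interval of -1.74 to 1.00 (adjusted p = 0.727, edgeR with Benjamini-Hochberg adjustment), so at this depth neither a marked fall nor a rise can be told from no difference. Per length, Snail was far more abundant than Slug in every library, with a ratio of Snai1 to Snai2 in CPM per kilobase of 34.7 and 28.6 in the saline libraries and 40.5 and 21.7 in the ADC/cmLumiOpto libraries. These ratios overlapped between the groups.

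Twist1 (ENSMUSG00000035799, chromosome 12, 34007670 to 34009828), a bHLH factor of mesoderm and of metastasis, was at 25.3 and 38.8 CPM in the saline libraries and at 27.1 and 20.0 CPM in the ADC/cmLumiOpto libraries. The groups overlapped, since saline replicate 1 lay below ADC/cmLumiOpto replicate 1. The means were 32.04 ± 9.50 and 23.6 ± 4.98 CPM (SD, n = 2), and the log2 fold change of -0.44 (SE 0.27, 95% interval -1.10 to 0.21) was at adjusted p = 0.360 (edgeR, Benjamini-Hochberg). Single libraries decided its size, which was -0.10 without saline replicate 2, -0.25 without ADC/cmLumiOpto replicate 2, -0.67 without ADC/cmLumiOpto replicate 1 and -0.73 without saline replicate 1. Its relative Twist2 (ENSMUSG00000007805, chromosome 1, 91729183 to 91775750) had 2, 6, 7 and 10 counts in saline 1, saline 2, ADC/cmLumiOpto 1 and ADC/cmLumiOpto 2, or 0.12503, 0.404, 0.397 and 0.488 CPM. The value of saline replicate 1 was under the floor, the groups overlapped, and the gene was too low to be tested beside the others. In the fit without a filter its log2 fold change was 0.73 with an adjusted p of 0.779 (edgeR, Benjamini-Hochberg). An antisense transcript gene that overlaps Twist2, Gm29100, had 8, 17, 2 and 25 counts in the same order of libraries, and because use of the strand in counting was not stated, reads of the overlap cannot be told apart. Per kilobase, Twist1 was at 187 times the level of Twist2 in saline replicate 2 and at 133 and 80.1 times in the ADC/cmLumiOpto libraries, and no ratio is given for saline replicate 1, where Twist2 was under the floor.

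The ZEB genes differed in their values, a difference between genes that was not tested. Zeb2 (ENSMUSG00000026872, chromosome 2, 44873644 to 45007407, minus strand), which is also used by macrophages and other myeloid cells, was at 73.6 and 88.0 CPM in the saline libraries and at 54.2 and 58.6 CPM in the ADC/cmLumiOpto libraries. Both treated libraries lay below both saline ones, and the mean went from 80.8 ± 10.1 to 56.4 ± 3.10 CPM (SD, n = 2), to 0.698 times the saline level. Its log2 fold change was -0.52 (SE 0.17, 95% interval -0.93 to -0.11), with an unadjusted p of 0.0213 and adjusted p = 0.158 (edgeR, Benjamini-Hochberg). Zeb2 has the longest gene model of the group (20203 bases), and once a smooth trend of the libraries on gene length was removed its log2 fold change was -0.13 (unadjusted p of 0.432). Its unadjusted p was also above 0.05 without saline replicate 2 (0.155) or ADC/cmLumiOpto replicate 1 (0.0664). The antisense gene Zeb2os had 32, 14, 31 and 48 counts, few beside the 956 to 1305 counts of Zeb2.

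Zeb1 (ENSMUSG00000024238, chromosome 18, 5591860 to 5775467) was at 25.6 and 18.6 CPM in the saline libraries and at 19.3 and 26.6 CPM in the ADC/cmLumiOpto libraries. One library of each group was high and one low, so the groups overlapped fully. The means were 22.1 ± 4.93 and 23.0 ± 5.16 CPM (SD, n = 2), with a log2 fold change of 0.06 (95% interval -0.57 to 0.68, adjusted p = 0.916, edgeR, Benjamini-Hochberg). The antisense gene Gm10125 within it had at most 6 counts. The sign of the fold change turned without saline replicate 2 (-0.15) or ADC/cmLumiOpto replicate 2 (-0.20). The ratio of Zeb2 to Zeb1 per kilobase was 1.46 and 2.40 in the saline libraries and 1.42 and 1.12 in the ADC/cmLumiOpto libraries. Both treated ratios were below both saline ratios, by little for saline replicate 1, and Zeb2 was the higher of the pair in all 4 libraries.

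Prrx1 (ENSMUSG00000026586, chromosome 1, 163072688 to 163141279, minus strand) encodes a homeobox factor of limb and craniofacial mesenchyme and of fibroblasts. It was at 17.0 and 19.7 CPM in the saline libraries and at 10.2 and 8.44 CPM in the ADC/cmLumiOpto libraries. Both treated libraries were well below both saline ones, and among the transcription factors tested it had the largest difference. The mean went from 18.4 ± 1.94 to 9.32 ± 1.25 CPM (SD, n = 2), to 0.507 times the saline level, a log2 fold change of -0.98 (SE 0.25, 95% interval -1.58 to -0.38). Its unadjusted p was 0.00666 and its adjusted p 0.123 (edgeR quasi-likelihood, Benjamini-Hochberg), while DESeq2 gave an adjusted p of 0.0298 and edgeR's exact test 0.0401. It stayed at an unadjusted p under 0.05 in each of the 12 alternatives, with log2 fold changes between -1.12 and -0.69. The antisense gene Gm20471 within Prrx1 was at 4.38 and 6.27 CPM in the saline libraries and at 6.35 and 4.93 CPM in the ADC/cmLumiOpto libraries (70, 93, 112 and 101 counts), with overlap between the groups. A further overlapping gene, Gm37644, had at most 5 counts.

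The table also names the family of each transcription factor, so the 7 factors can be set beside their relatives. Of 444 other C2H2 zinc finger genes tested, the family of the SNAI and ZEB genes, 53 were lower and 13 higher at an unadjusted p under 0.05, with a median log2 fold change of -0.06. Among 50 other bHLH genes, the family of the TWIST genes, 9 were lower and 9 higher, with a median of -0.08. Of 58 other homeobox genes 5 were lower and 3 higher, with a median of -0.14. Over all genes tested, 12.2% were lower and 11% higher at that threshold.

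**Figure D2:**
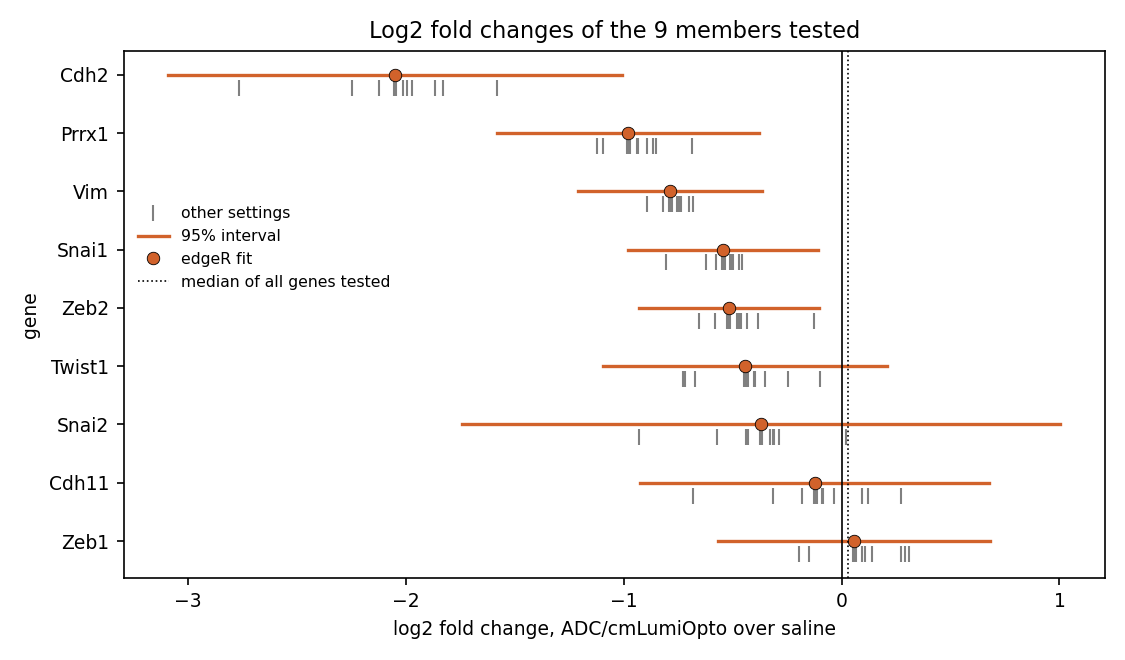
Log2 fold change of ADC/cmLumiOpto over saline for the 9 genes tested, as points with 95% intervals from edgeR's quasi-likelihood fit and grey ticks for the 12 other settings, with a dotted line at the median of all genes tested. The intervals of Cdh2, Prrx1, Vim, Snai1 and Zeb2 lie below 0, before adjustment for the number of genes tested, and those of Twist1, Snai2, Cdh11 and Zeb1 span it.

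Cdh2 had the largest difference of the group, whereas the Cdh11 values overlapped between the groups, and the difference between the cadherins was not tested. Cdh2 (ENSMUSG00000024304, chromosome 18, 16721934 to 16942303, minus strand) encodes N-cadherin, the adhesion protein of neural and mesenchymal cells that takes the place of E-cadherin in EMT. It had 304 and 209 counts in the saline libraries and 43 and 113 in the ADC/cmLumiOpto libraries, or 19.0 and 14.1 CPM against 2.44 and 5.51 CPM. Both treated libraries were far below both saline ones, although the treated libraries also differed from each other by more than the saline ones did in proportion. The mean went from 16.5 ± 3.48 to 3.97 ± 2.17 CPM (SD, n = 2), to 0.241 times the saline level, a log2 fold change of -2.05 (SE 0.43, 95% interval -3.09 to -1.01). By edgeR's quasi-likelihood fit with Benjamini-Hochberg correction the adjusted p was 0.116 (unadjusted p of 0.00261), against values of 0.000707 in DESeq2, 0.00216 in edgeR's exact test and 0.0365 with a replicate block. Its log2 fold change lay between -2.76 and -1.58 in the 12 alternatives, with the smaller size without ADC/cmLumiOpto replicate 1, the library with the lowest level.

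Cdh11 (ENSMUSG00000031673, chromosome 8, 103358727 to 103512274, minus strand) encodes cadherin-11, the main cadherin of fibroblasts and osteoblasts. It was at 38.4 and 28.6 CPM in the saline libraries and at 40.6 and 20.9 CPM in the ADC/cmLumiOpto libraries. The treated libraries held both the highest and the lowest value of the 4. The means were 33.5 ± 6.93 and 30.8 ± 13.98 CPM (SD, n = 2), and the log2 fold change of -0.12 had a 95% interval of -0.93 to 0.68 (adjusted p = 0.852, edgeR, Benjamini-Hochberg). Its sign turned with the length trend removed (0.12), without saline replicate 1 (0.09) and without ADC/cmLumiOpto replicate 2 (0.27), while without ADC/cmLumiOpto replicate 1 it was -0.68. Per kilobase, Cdh11 was 1.83 and 1.84 times as abundant as Cdh2 in the saline libraries and 15.1 and 3.43 times in the ADC/cmLumiOpto libraries.

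Cdh1, the E-cadherin gene that the factors above repress in EMT, was at 266 and 171 CPM in the saline libraries and at 283 and 277 CPM in the ADC/cmLumiOpto libraries. Both treated libraries were above both saline ones, but saline replicate 1 lay close to them. The log2 fold change was 0.36 (SE 0.23, adjusted p = 0.384, edgeR, Benjamini-Hochberg). Per kilobase, Cdh1 exceeded Cdh2 by 24.7 and 21.4 times in the saline libraries and by 205 and 88.7 times in the ADC/cmLumiOpto libraries, and no test was run on these ratios. Against Cdh11 it was 13.5 and 11.7 times as abundant in the saline libraries and 13.6 and 25.9 times in the ADC/cmLumiOpto libraries. Cdh1 thus had the higher level of E-cadherin over either mesenchymal cadherin in all 4 libraries, and both treated libraries had the larger ratio, by little for Cdh11 in ADC/cmLumiOpto replicate 1. Cdh1 is also a gene of normal lung epithelium, whose markers were higher in the treated libraries (values below).

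Of the 10 other cadherin and catenin genes tested in a list of 12, 4 were lower and 1 higher at an unadjusted p under 0.05, with a median log2 fold change of -0.42 and 0 at an adjusted p under 0.05. Of all genes tested, 12.2% were lower and 11% higher at the unadjusted threshold. Cdh4 was too low to be tested and Ctnna2 had no count. The 3 with the smallest p were Ctnnb1 (-0.65, SE 0.17), the β-catenin gene, Cdh13 (-0.98, SE 0.33), a cadherin held by a lipid anchor, and Cdh3 (-1.29, SE 0.43), the P-cadherin gene of basal epithelium. Cdh13 was at 17.3 and 25.7 CPM in the saline libraries and at 8.39 and 13.3 CPM after treatment. Cdh3 was at 3.13 and 3.44 CPM and then at 1.36 and 1.32 CPM, so that its groups also stood apart. Cdh5, the cadherin of endothelial cells, was at 149 and 126 CPM in the saline libraries and at 110 and 169 CPM after treatment, with overlap and a log2 fold change of 0.02.

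**Figure D3:**
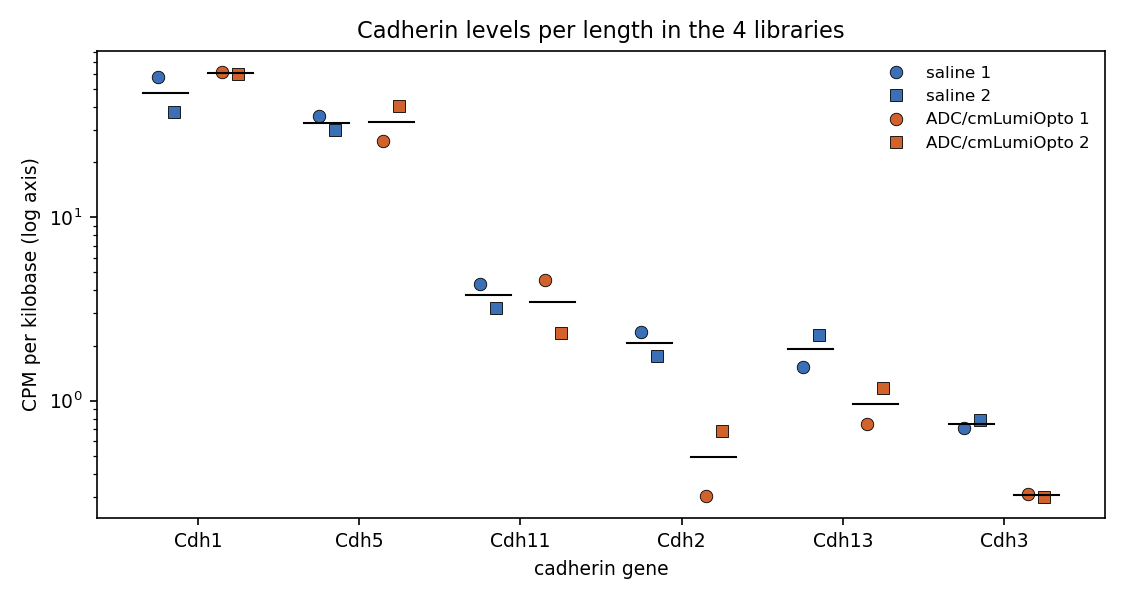
Cadherin levels in CPM per kilobase of the listed gene length on a log axis, with circles for replicate 1, squares for replicate 2, blue for saline, orange for ADC/cmLumiOpto and a bar at the mean of each group of 2. Cdh2 goes from 2.05 to 0.493, Cdh11 from 3.76 to 3.45 with overlapping points, and Cdh1 stays the highest of the 6.

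Vim (ENSMUSG00000026728, chromosome 2, 13578738 to 13587637) encodes the filament protein of fibroblasts, endothelial cells, leukocytes and mesenchymal-like tumor cells. It was by far the most abundant gene of the group, at 4001 and 4580 CPM in the saline libraries and at 2546 and 2427 CPM in the ADC/cmLumiOpto libraries. Both treated libraries were below both saline ones by more than the difference between the saline libraries. The treated level was 0.580 times the saline level, a log2 fold change with a 95% interval of -1.21 to -0.36 and an adjusted p of 0.116 by the quasi-likelihood fit (edgeR, Benjamini-Hochberg), 0.00135 in DESeq2 and 0.0198 in edgeR's exact test. Over the 12 alternatives it lay between -0.89 and -0.68, and its unadjusted p was above 0.05 only without saline replicate 2 (0.0637). Set against Krt8, a keratin gene of simple epithelium, Vim per kilobase was 1.45 and 1.23 times as abundant in the saline libraries and 0.929 and 0.897 times in the ADC/cmLumiOpto libraries. Vim was thus the higher of the pair in both saline libraries and Krt8 in both treated ones, a description without a test. Krt8 itself was at 1141 and 1543 CPM in the saline libraries and at 1131 and 1117 CPM after treatment, a log2 fold change of -0.25 (adjusted p = 0.471, edgeR with Benjamini-Hochberg adjustment).

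Among 7 tested genes of other intermediate filaments and their linkers in a list of 9, 2 were lower and 0 higher at an unadjusted p under 0.05, with a median of -0.32. These were Plec (-0.77, SE 0.20), which encodes plectin, the protein that ties vimentin to other parts of the cytoskeleton, and Lmna (-0.69, SE 0.19), which encodes lamins A and C of the nuclear lamina. Next by p came Lmnb1, at -0.32 with an unadjusted p of 0.0794. At the threshold of 0.05, 12.2% of all genes tested were lower and 11% higher. Plec was at 604 and 805 CPM in the saline libraries and at 390.3 and 437 CPM in the ADC/cmLumiOpto libraries, with no overlap. Gfap and Prph, filament genes of glia and neurons, were too low to be tested.

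By level per kilobase in the saline group, the order was Vim (905 ± 86.4 CPM per kilobase, SD, n = 2), Snai1 (20.3 ± 1.67), Twist1 (19.7 ± 5.84), Zeb2 (4.00 ± 0.501), Cdh11 (3.76 ± 0.779), Zeb1 (2.15 ± 0.480), Cdh2 (2.05 ± 0.431), Prrx1 (1.66 ± 0.175), Snai2 (0.643 ± 0.0342) and Twist2 (0.0834 ± 0.0622). Neighbours in this order whose 2 libraries overlapped were Snai1 and Twist1, Zeb2 and Cdh11, Zeb1 and Cdh2, and Cdh2 and Prrx1. In the ADC/cmLumiOpto group Vim led again (524 ± 17.7), followed by Twist1 (14.5 ± 3.06), Snai1 (13.9 ± 0.377), Cdh11 (3.45 ± 1.57), Zeb2 (2.79 ± 0.153), Zeb1 (2.24 ± 0.503), Prrx1 (0.842 ± 0.113), Snai2 (0.494 ± 0.223), Cdh2 (0.493 ± 0.269) and Twist2 (0.139 ± 0.0203). Cdh2 was the gene that moved most in the order, from above Prrx1 to the level of Snai2. The libraries of Twist1 and Snai1, of Cdh11 and Zeb2, and of Snai2 and Cdh2 overlapped there. Snai1 and Twist1 were the leading transcription factors in both groups.

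The cofactor list of the EMT factors holds 21 genes, partners and opponents together. Of these, 7 were lower and 2 higher at an unadjusted p under 0.05, with a median log2 fold change of -0.27. Over all genes tested, 12.2% were lower and 11% higher at that threshold. The 3 with the smallest p were Tcf12 (-0.81, SE 0.17) and Tcf4 (-0.59, SE 0.15), E-proteins that pair with Twist, and Gsk3b (-0.85, SE 0.21), the kinase that marks Snail for breakdown. Tcf12 was at 126 and 153 CPM in the saline libraries and at 78.5 and 80.6 CPM after treatment. The E-protein gene Tcf3 was lower as well (-0.61, SE 0.16), while the 2 genes that were higher, Id1 (0.66, SE 0.21) and Id3 (0.93, SE 0.32), encode proteins that bind E-proteins and keep them from DNA. The other Id genes of the list, Id2 (-0.02, SE 0.23) and Id4 (0.27, SE 0.47), overlapped between the groups. Tcf3 and the Id genes were named after their values had been seen. The listed lengths were 15529 (Tcf12), 27382 (Tcf4), 9831 (Gsk3b) and 4039 bases (Tcf3), beside 1160 (Id1) and 1791 bases (Id3). A part of gene length in these differences was not tested. For Tcf12, Tcf4, Gsk3b, Tcf3, Id1 and Id3 the adjusted p (edgeR, Benjamini-Hochberg) lay between 0.116 and 0.167.

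Of 22 epithelial genes that EMT factors are known to keep down, 4 were lower and 4 higher at an unadjusted p under 0.05, with a median of -0.15. Over all genes tested, 12.2% were lower and 11% higher. The 4 lower genes were Cdh3 (-1.29), Krt14 (-0.62), Tjp1 (-0.44) and Pkp3 (-0.44). The 3 with the smallest p were all higher after treatment, Cldn7 (2.02, SE 0.35) and Cldn3 (1.72, SE 0.31), which encode tight junction claudins, and Rab25 (1.38, SE 0.34), an epithelial vesicle transport gene. Cldn7 was at 3.44 and 2.63 CPM in the saline libraries and at 14.7 and 9.997 CPM in the ADC/cmLumiOpto libraries, and Cldn3 at 12.1 and 6.74, then 33.7 and 28.4 CPM. Both genes are used by alveolar and airway epithelium as well. Cldn7, Cldn3 and Rab25 have listed lengths of 1948, 1259 and 1673 bases. The 4 lower genes have 4384 (Cdh3), 1758 (Krt14), 7811 (Tjp1) and 3616 bases (Pkp3), and a part of length was not tested. Epcam, which overlapped between the groups, had a log2 fold change of 0.18.

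The genes upstream and downstream of the EMT factors had mostly lower means after treatment, 16 of 18 genes of the inducer list and 13 of 16 effectors. The share of all genes with a lower mean was not computed, and their median log2 fold change was 0.03. At an unadjusted p under 0.05, 12.2% of all genes tested were lower and 11% higher. Of the 18 genes listed as inducers, 8 were lower and 0 higher at an unadjusted p under 0.05, with a median of -0.35, led by Smad3 (-1.23, SE 0.18), the transducer of TGF-β signals that induces Snai1, Tgfb2 (-1.06, SE 0.22) and Bmp7 (-1.44, SE 0.31). Bmp7 is known to oppose TGF-β, so its lower level is not that of an inducer. Of the 16 matrix and adhesion effectors, 10 were lower and 1 (S100a4) higher, with a median of -0.69. The 3 with the smallest p were the collagen cross-linking enzyme gene Loxl2 (-1.58, SE 0.18), the matrix metalloproteinase gene Mmp2 (-1.86, SE 0.24) and Tnc (-1.66, SE 0.26), which encodes tenascin C. Mmp2 was at 180 and 117 CPM in the saline libraries and at 38.7 and 42.8 CPM after treatment. In both lists 0 genes had an adjusted p under 0.05 in edgeR's quasi-likelihood test, as did 0% of all genes tested. DESeq2 called 8.69% of all genes, and its calls within these lists are not given here.

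Markers of the cell types that express these genes also differed between the groups, and their part in the results above was not tested. The marker counts below use an unadjusted p under 0.05, at which 12.2% of all genes tested were lower and 11% higher. The summed level of 12 fibroblast markers was 5277 and 3546 CPM in the saline libraries and 2108 and 1864 CPM in the ADC/cmLumiOpto libraries. Within that list 6 were lower and 4 higher at an unadjusted p under 0.05, Col1a1 (-2.02), Col1a2 and Pdgfra (-0.81) having the smallest p, while Tcf21 (2.21) and Inmt (2.58), genes of resident lung fibroblasts, were higher. The fibroblast markers thus did not go one way, and the collagen genes Col1a1, Col1a2 and Col3a1 made up most of the sums. Col1a1 was at 2058 and 1362, then 437 and 405 CPM. Col1a2 was at 1246 and 767, then 442 and 322 CPM, and Col3a1 at 1403 and 1000, then 640 and 455 CPM. The lower sums therefore do not stand for fibroblasts as a whole. Prrx1, Cdh11, Twist1 and Vim are all expressed by fibroblasts.

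For mural and smooth muscle cells, 2 of 11 markers were lower and 1 higher, with sums of 440 and 498 CPM, then 341 and 399 CPM. For endothelial cells, 7 of 10 were higher and 0 lower, with sums of 620 and 444 CPM, then 728 and 1111 CPM. For leukocytes, 5 of 11 tested were higher and 0 lower, with sums of 3101 and 1825 CPM, then 5725 and 9881 CPM. Those sums were mostly Lyz2, S100a8 and S100a9, the last pair at 3089 and 3815 CPM in ADC/cmLumiOpto replicate 2, and without these 3 genes the other 9 summed to 455 and 316 CPM, then 442 and 530.3 CPM, with overlap. Vim is expressed in both endothelial cells and leukocytes. For macrophages, which express Zeb2, 1 of 11 markers was higher and 1 lower, with sums of 3649 and 3131 CPM, then 6564 and 4259 CPM. The marker Lyz2 held most of that difference, and without it the other 10 summed to 1962 and 2003 CPM, then 2265 and 1812 CPM, with overlap.

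Of 13 alveolar and airway markers 12 were higher, with sums of 2916 and 585 CPM in the saline libraries and 12087 and 8151 CPM in the ADC/cmLumiOpto libraries. Of 11 tested tumor epithelial markers 2 were lower and 0 higher, with overlapping sums of 3419 and 3926 CPM, then 3570 and 3392 CPM. That list holds Krt8 and Cdh1, which are not particular to tumor cells, so its sums do not measure tumor cells alone. Of 10 proliferation markers 6 were lower and 0 higher, with sums of 1629 and 1645 CPM, then 1191 and 1043 CPM, and of 5 mesothelial markers 1 was lower and 0 higher with overlapping sums of 145 to 241 CPM. No marker of any of these cell types had 0 counts in every library.

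**Figure D4:**
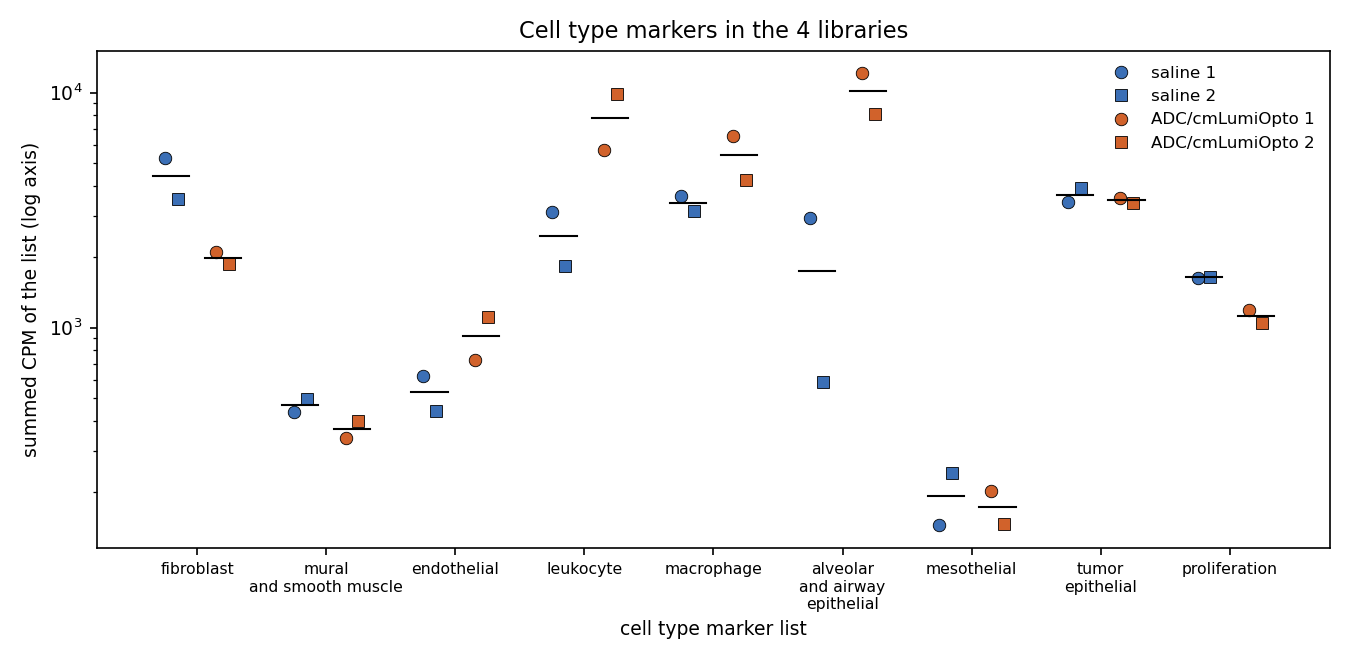
Summed TMM-scaled CPM of each cell type marker list on a log axis, with circles for replicate 1, squares for replicate 2, blue for saline, orange for ADC/cmLumiOpto and a bar at the mean of each group of 2. The fibroblast and proliferation sums are lower in both treated libraries, the alveolar and airway, leukocyte, endothelial and macrophage sums are higher in both, and the tumor epithelial and mesothelial sums overlap. Without Lyz2 the macrophage sums overlap, as do the leukocyte sums without Lyz2, S100a8 and S100a9. The fibroblast sums are mostly Col1a1, Col1a2 and Col3a1.

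The 9 genes tested did not share one profile to the same degree. Their mean profile, the log2 CPM centred on each gene's mean over the 4 libraries, was 0.33 and 0.32 in the saline libraries and -0.38 and -0.28 in the ADC/cmLumiOpto libraries. Snai1 lay closest to it (root mean square distance of 0.0813 over the 4 libraries), then Vim (0.114) and Zeb2 (0.118). Cdh2 lay farthest from the mean (0.834), with the highest centred values in both saline libraries and the lowest in ADC/cmLumiOpto replicate 1, followed by Cdh11 (0.465) and Zeb1 (0.409). Among the other protein-coding genes tested, the 5 nearest to the mean profile were Kat6a (0.00746), Mapk1ip1l (0.00906), Oscp1 (0.0183), Copg1 (0.0198) and Champ1 (0.0218), a likeness over only 4 libraries that many genes can reach.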

How the data were processed

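Bulk RNA of 2 saline and 2 ADC/cmLumiOpto samples, fewer than the study describes, was sequenced after poly-A selection on an Illumina HiSeq platform. The deposited values are raw counts of reads per gene for 56748 genes, which the authors left unnormalized. The submitters' processing notes name HISAT2 and the build mm39, whereas the study's methods name GRCm38. Positions are those of the deposited table. The counting program and the use of strand were not given in the sources used here, so reads of overlapping genes may be split or shared.

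Samples were grouped by their labels. The analysis used edgeR 4.0.16 under R 4.3.3, with filterByExpr (minimum count 10, minimum total 15), TMM, estimateDisp, glmQLFit and glmQLFTest over all 15320 genes kept, with Benjamini-Hochberg adjustment at 0.05. The prior count behind a fold change was 0.125, and the SE is the size of the log2 fold change divided by the square root of F. Levels are CPM on the counts of the genes kept, as mean ± SD, and levels between genes are CPM per kilobase of the listed length. Total counts of 15263375 to 19675436 set the precision.

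The 12 alternatives were library size without TMM, upper-quartile factors, DESeq2 1.42.0, edgeR's exact test, no filter, at least 10 counts in every sample, a replicate block, the gene length trend removed (lowess span 0.3) and each of the 4 samples left out. The procedure was also run on simulated data that gave all genes the same spread between samples. No result of that run is used here, and it cannot tell which test suits these data. The genes and lists were chosen with earlier results of these data known. Named are all 10 genes, the 3 genes of each related list with the smallest p, overlapping genes with counts, and the 5 genes nearest in profile. Exceptions are Cdh5, Epcam, Krt8, Cdh1, S100a4 and other list genes named as context after their values were seen.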

Additional observations from a re-analysis of the deposited data

How the results depend on the processing

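With 2 samples a group, the adjusted p of a gene turned on the test. The number of EMT genes at an adjusted p under 0.05 was 0 in edgeR's quasi-likelihood fit and 3 with DESeq2, with edgeR's exact test and without a filter on low counts, and 1 with a replicate block. The cause was not tested. The median log2 fold change of the 9 genes was -0.43 with upper-quartile factors and -0.69 with the gene length trend removed, and between -0.67 and -0.38 with a sample left out. The number lower at an unadjusted p under 0.05 was 5 in each alternative that kept all samples. With a sample left out the genes themselves changed, and Snai1, Zeb2 or Vim no longer met the threshold. Twist1 (-0.73) met it without saline replicate 1, and Cdh11 (-0.68) without ADC/cmLumiOpto replicate 1. With the length trend removed, Twist1 (unadjusted p of 0.0295) entered and Zeb2 left the count of 5. Cdh11 turned to 0.12 with the length trend removed. With a sample left out, Cdh11 was between -0.68 and 0.27, Zeb1 between -0.20 and 0.29, and Snai2 between -0.93 and 0.021. Cdh2, Prrx1, Vim, Snai1, Zeb2 and Twist1 kept their sign in all 12 alternatives, and all 9 genes did under the other scalings. Adjusted p values in these ranged from 4.13e-07 to 0.230 for Cdh2, 0.0213 to 0.467 for Prrx1 and 0.000307 to 0.506 for Vim. Same-numbered samples did not deviate together (correlation 0.0711 across genes). With 1 difference between libraries per group, this cannot tell whether the numbers pair the samples. With the replicate block Cdh2 was at -2.13 (adjusted p = 0.0365 in edgeR), and the number of genes called went from 0 to 607 of 15320. With a sample left out, the lone sample of its group is assumed to vary like the other group. Depth limits Snai2 and Twist2, where differences were not detectable.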
